A study of Arabidopsis thaliana with 4 samples.

Results

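QQS (QUA-QUINE STARCH, AT3G30720) was read by 1 probe set, 256940_at, among 22746 plant probe sets on Affymetrix ATH1 arrays of Arabidopsis thaliana seedlings. The gene was chosen by its signal in these arrays, lower in both mutant lines than in wild type, so those differences are given here as a description with no test. All plants were whole seedlings of the Col-0 background, 14 days old, grown on agar at 24 °C in long days (16 h light, 8 h dark) after 2 days in the cold. There were 2 arrays of a cesta T-DNA line tagged as a gene knockout. A cesta enhancer trap line, which the labels also tag as a gene knockout, had 1 array, and the Columbia-0 wild type had 1 array. CESTA (CES) is a transcription factor of the basic helix-loop-helix class that acts in brassinosteroid responses. Each mutation was represented by a single line, and no label states whether separate cultures lay behind the knockout arrays, so the spread between them may be technical. The wild-type level rests on 1 array, so a difference of genotype and a deviation of that array cannot be told apart.

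QQS is an orphan gene, found in Arabidopsis thaliana and without recognisable relatives in other species, that encodes a small protein. Lines with reduced QQS hold more leaf starch, and raised QQS shifts carbon from starch towards protein. The QQS protein binds NF-YC4, a subunit of the NF-Y transcription factor complex. QQS transcript level also varies between natural accessions, where it is linked to DNA methylation near the gene.

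QQS stood out from the array background in wild type and lay close to it in both mutant lines. Its signal was 13.6 and 12.0 in the knockout arrays, 14.2 in the enhancer-trap array and 154 in the wild-type array. The 3 mutant arrays lay close together and did not reach the wild-type value. The knockout arrays averaged 12.8 ± 1.12 (SD, n = 2), which was 8.27% of the wild-type signal, and the enhancer-trap signal was 9.23% of it. Wild type was 11.4-fold and 12.9-fold above the knockout arrays and 10.8-fold above the enhancer-trap array. Whole seedlings were sampled, so fewer cells with QQS transcript and less transcript per cell cannot be told apart.

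**Figure D1:**
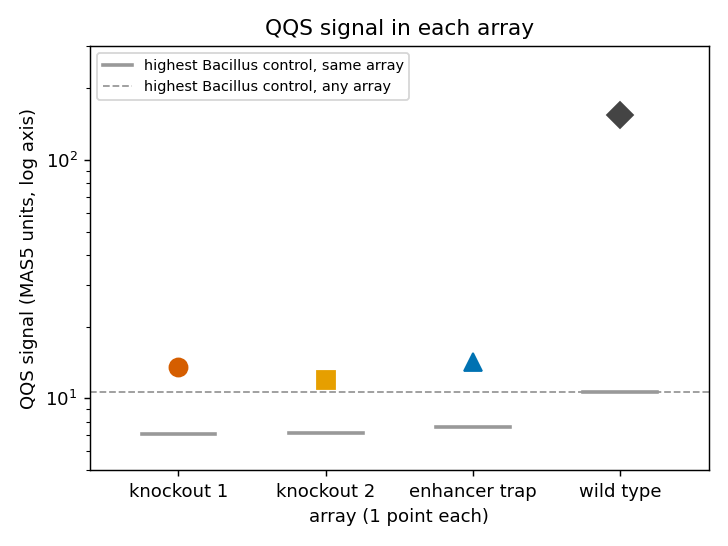
Signal of QQS in MAS5 units on a log axis, 1 point per array, with grey bars for the highest Bacillus control signal of the same array and a dashed line for the highest on any array (10.6). The 3 mutant arrays sit between 12.0 and 14.2, just above the dashed line, and wild type sits at 154.

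The background was taken from 27 Bacillus control probe sets, which have no target in the plant. Their highest signal on any array was 10.6, in wild type, and on the other arrays the highest was 7.07 (knockout replicate 1), 7.20 (knockout replicate 2) and 7.57 (enhancer trap). QQS was 1.28 and 1.13 times the 10.6 level in the knockout arrays, 1.34 times in the enhancer-trap array and 14.5 times in wild type. Against the highest control of the same array, the mutant signals were 1.92, 1.66 and 1.88 times as high. No detection calls were used here, so the mutant signals are given as values near background and the fold differences from wild type are uncertain. Against a floor of 16, above all 3 mutant signals, wild type would be 9.65-fold higher.

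The rank of QQS among plant probe sets shifted with the group. QQS was number 15245 and 15941 from the top in the knockout arrays, number 15165 in the enhancer-trap array and number 4433 in wild type. Between 29.9% and 33.3% of probe sets lay below it in the mutant arrays, against 80.5% in wild type. QQS was thus in the dimmer part of all signals in every mutant array and in the brighter part in wild type, where it was 3.89 times the array median.

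Both mutant lines had QQS signals near background. On the log2(signal + 1) scale the knockout minus the enhancer trap was -0.15, the knockout arrays differed by 0.17 and all 3 mutant arrays spanned 0.23. No test is given for this difference, because QQS was chosen for low signals in both lines and passed the filter on low signal only through wild type. CES, the gene named in the labels of both lines, read 7.29 and 5.35 in the knockout arrays, 4124 in the enhancer-trap array and 0.533 in wild type. The CES signals of the mutant lines lay far apart. The CES readings of knockout and wild type were all under the 10.6 background level. In knockout replicate 1 the reading was just above the highest control of the same array, 7.07.

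The size of the QQS gap was set against the other probe sets. The gap was the wild-type value minus the highest mutant value on the log2(signal + 1) scale, and for QQS it was 3.35. Of 13648 tested probe sets, wild type lay above all 3 mutant arrays in 3257 (23.9%), with a median gap of 0.11, and below all 3 in 2811. Wild type lay within the mutant range in the other 7580. QQS had the largest gap, and the next largest was 1.05.

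Wild type stood at least 2-fold above every mutant array in 3 of 13648 tested probe sets (0.022%), QQS included, and at least 2-fold below in 4 (0.0293%). Both other probe sets above, 267115_s_at and 263690_at, carry no listed gene. Their gaps were 1.05 and 1.03, just inside the threshold, and AT1G05170 lay just outside at 0.93. Probe set 267115_s_at read 34.4 and 26.2 in the knockout, 30.5 in the enhancer trap and 72.3 in wild type. The study's other groups gave 213 probe sets for the enhancer trap alone apart at this fold (1.56%) and 2 for the knockout pair apart, AT4G19430 below and AT2G31010 above the other arrays. Among tested probe sets, wild type alone was therefore apart in few, and QQS was the 1 above by at least 3-fold. Both counts depend on the filter on low signal, which QQS passed only through wild type. With no filter, 661 of 22746 probe sets had wild type alone apart.

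**Figure D2:**
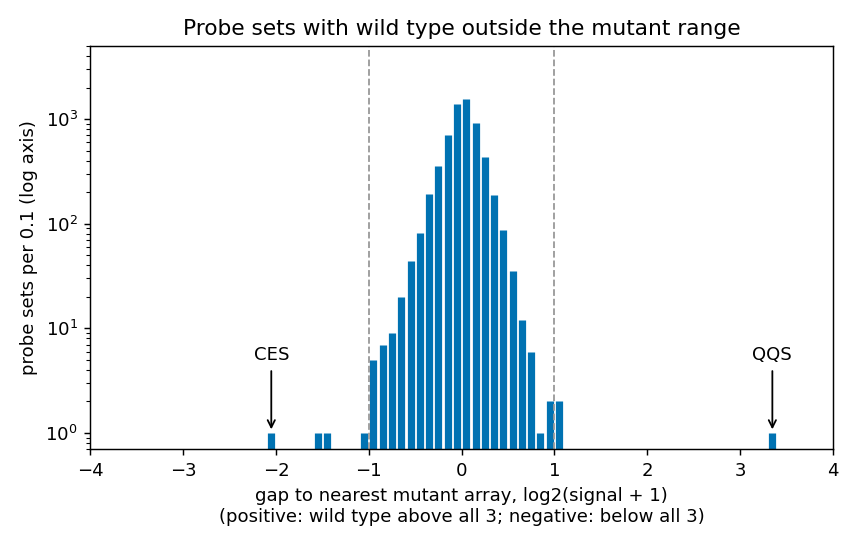
Number of tested probe sets on a log axis against the gap between wild type and the nearest mutant array, for the probe sets with wild type above (positive) or below (negative) all 3 mutant arrays; dashed lines mark 2-fold. QQS at 3.35 is separate from the rest of the upper side, which ends at 1.05. CES lies lowest, but its knockout and wild-type signals were all under the 10.6 background level.

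On the lower side the named genes were CES, AT5G59170 and CW9. The CES gap of 2.05 lay between signals that were under the 10.6 background level. AT5G59170 read 44.9 and 27.9 in the knockout, 35.8 in the enhancer trap and 9.91 in wild type, with wild type within background. CW9, a disease resistance gene of the NBS-LRR class, read 30.3 and 37.6 in the knockout, 29.8 in the enhancer trap and 13.5 in wild type. The gaps of AT5G59170 and CW9 were 1.41 and 1.08, both smaller than the gap of QQS. Both were listed because wild type lay at least 2-fold below every mutant array, so that separation was set by the choice.

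The filter on low signal bears on these counts. QQS had a mean of 4.69 over the 4 arrays on the log2 scale, against a filter at 4.58, and a mean of 3.83 over the mutant arrays alone. It was thus tested only through its wild-type signal. CES was tested only through its enhancer-trap signal. Among probe sets under the filter, 76 had wild type above background and at least 2-fold above every mutant array. The largest such gap was 2.52, for AT3G15550, at 0.508 and 1.35 in the knockout, 0.976 in the enhancer trap and 12.4 in wild type. Counted over all 22746 probe sets, wild type was alone apart in 661 in place of 7. On the tested probe sets it was apart in 27 without knockout replicate 1 and in 13 without knockout replicate 2. Leaving out a mutant array can only keep or raise the count. Over all 22746 probe sets the largest gap other than that of QQS was 2.90.

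Probe sets as dim as QQS in the knockout showed what spread such signals have. The enhancer trap was not used to define this class. With a knockout mean between 8 and 20 there were 2722 probe sets, QQS among them. The knockout arrays of these differed by a median of 0.42 on the log2 scale, with a 90th percentile of 1.18, against 0.17 for QQS. In 21.2% of the class this difference was smaller than in QQS. Their wild-type signals had a median of 13.6 and a 99th percentile of 31.2, and the highest apart from QQS was 47.7, in AT4G19430. That gene read 214 in the enhancer trap. QQS at 154 in wild type was the 1 probe set of this class above 100. As QQS was chosen for signal lower in both mutant lines than in wild type, that standing was set by the choice.

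Probe sets as bright as QQS in wild type were read as well. Apart from QQS, 1840 probe sets had a wild-type signal within 1.25-fold of it. Their mutant arrays averaged a median of 98.4% of wild type. In 33 of them the enhancer-trap signal was under 50% of wild type, in 0 were both knockout arrays under 50%, and so in 0 were all 3 mutant arrays. The nearest to QQS among them had its highest mutant array at 59.4% of wild type. QQS was chosen for its low mutant signals, so its place apart in this class was set by the choice. The knockout arrays differed from each other by at least 2-fold in 83 of 13648 tested probe sets (0.608%), and by at least 3.35 on the log2 scale in 1, the plastid photosystem gene psaA. That gene read 67.9 and 787 in the knockout, 607 in the enhancer trap and 531 in wild type, so a difference as large as the QQS gap did occur between arrays of 1 line.

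The genes nearest to QQS in pattern were found by Euclidean distance between deviations from each gene's own 4-array mean, over 4 arrays and 3 conditions. Of all tested probe sets, the unlisted 267115_s_at and 263690_at were nearest, at 1.93 and 1.95. Among probe sets with 1 listed gene the nearest were AT3G28500, AT5G67390, AT1G05170, AT4G14060, AT1G04770 and AT4G12490, at distances of 2.00 to 2.18. A probe set with no variation would lie at 2.99, so none was close to QQS. AT1G05170 read 19.5 and 24.95 in the knockout, 24.4 in the enhancer trap and 48.4 in wild type. Its mutant arrays lay close together and below wild type, as in QQS. These genes were picked by likeness to QQS over the same arrays, so that likeness was set by the choice. AT3G28500 read 62.1 and 44.9 in the knockout, 26.4 in the enhancer trap and 114 in wild type. Its knockout was higher than the enhancer trap by 0.97 (SE 0.268, adjusted p = 0.0173, limma), which passed the test. AT5G67390 read 27.8 and 69.4 in the knockout, 51.6 in the enhancer trap and 118 in wild type, so its knockout arrays spread on both sides of the enhancer trap.

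**Figure D3:**
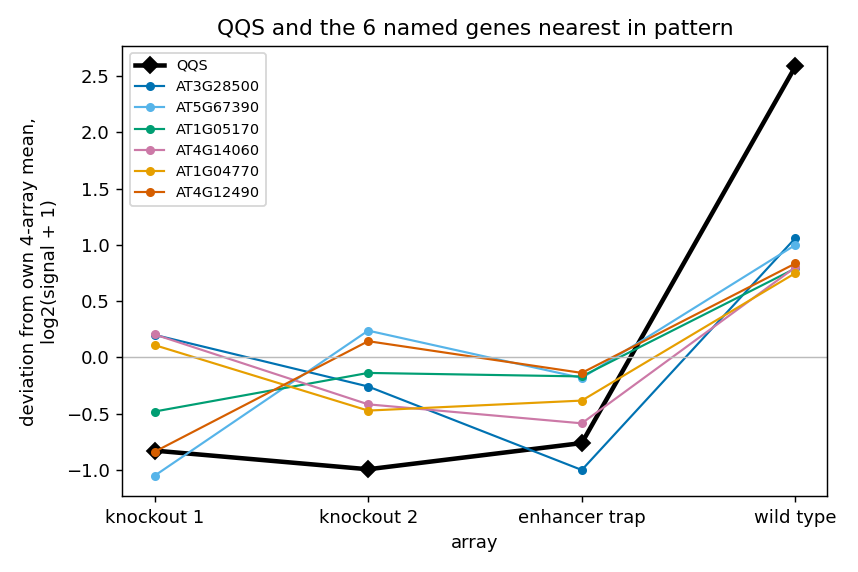
Deviation of log2(signal + 1) from each gene's own 4-array mean, by array, for QQS (black) and the 6 named genes nearest in pattern. All 7 are highest in wild type, which the choice by likeness to QQS favours, and QQS stands furthest above its mutant arrays, which spread by 0.23.

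QQS lies on chromosome 3, and in the gene order of TAIR10.1 its nearest measured genes had signals under the 10.6 background level in every array. Measured genes here are those with a probe set listed for that gene alone. Of the 10, 5 on either side, 9 are annotated as pseudogenes and 1, AT3G30730, as protein coding. Their highest signal in any array was 8.41, in AT3G30740, which read 3.88 and 8.41 in the knockout, 1.78 in the enhancer trap and 2.17 in wild type. The 8.41 lay above the highest control of the same array, 7.20. AT3G30730 read 1.17 and 0.424 in the knockout, 1.48 in the enhancer trap and 0.254 in wild type. None passed the filter, and the highest wild-type signal among them was 2.31, in AT3G30710. None of these 10 had a signal above background in wild type, where QQS was at 154. As 8730 probe sets have no listed gene, other genes in between could not be placed or read. The nearest named genes above background in all arrays were AT3G30390 on one side and AT3G32030 on the other. Before AT3G30390 lay 20 measured of 80 annotated genes, and before AT3G32030 lay 37 of 178. AT3G30390 read 1535 and 1601 in the knockout, 1812 in the enhancer trap and 1580 in wild type.

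**Figure D4:**
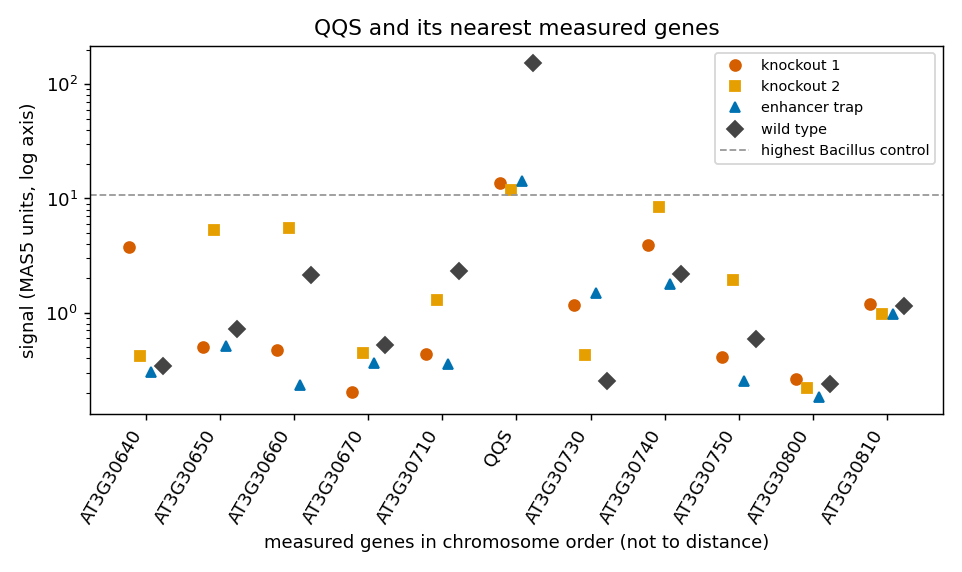
Signal in MAS5 units on a log axis for QQS and the 5 nearest measured genes on either side in chromosome order, 4 arrays each. Genes without a listed probe set of their own are not shown. The highest Bacillus control signal (10.6) is a dashed line. QQS alone lies above the line, and its wild-type point stands clear of the mutant points.

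Genes of starch metabolism were read beside QQS. Starch is built in plastids from ADP-glucose by synthases and branching enzymes and is broken down after phosphorylation of the granule surface. Of 40 genes listed for synthesis and degradation, 7 had a probe set named in the platform annotation and 5 of these passed the filter. None of the 5 passed the test in the knockout or the enhancer trap against wild type, where 0.183% and 4.29% of all tested probe sets passed, or between the mutant lines, where 5.99% passed. With so few members measured, these counts are near what the whole array gives. Their median change was -0.08 for knockout against wild type and -0.04 for enhancer trap against wild type, beside -0.01 for all tested probe sets in each.

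Among synthesis genes, SBE2.2, a starch branching enzyme, read 203 and 144 in the knockout, 218 in the enhancer trap and 233 in wild type. Its knockout change was -0.44 (SE 0.189, adjusted p = 0.729, limma), and the knockout arrays differed widely. APL3, a large subunit of the ADP-glucose pyrophosphorylase, read 37.9 and 34.7 in the knockout, 30.9 in the enhancer trap and 38.3 in wild type. AT5G39790 lay between 39.4 and 44.7 in all arrays. APL4, another large subunit, read 5.15 and 4.03 in the knockout, 22.3 in the enhancer trap and 8.36 in wild type, and so was above background in the enhancer trap only. It did not pass the filter.

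Among degradation genes, PWD, the phosphoglucan water dikinase that prepares the granule for attack, read 152 and 146 in the knockout, 194 in the enhancer trap and 139 in wild type. Its enhancer-trap change was 0.48 (SE 0.216, adjusted p = 0.309, limma). DPE1, the plastidic disproportionating enzyme, read 118 and 99.5 in the knockout, 134 in the enhancer trap and 136 in wild type. AMY1, an alpha-amylase, read 9.12 and 21.2 in the knockout, 9.16 in the enhancer trap and 19.7 in wild type, and was under the filter. None of the 7 had all 3 mutant arrays at least 2-fold from wild type. Over the array this held in 7 of 13648 tested probe sets (0.0513%), and in 661 of all 22746. The count for the starch genes is thus near what the whole array gives.

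**Figure D5:**
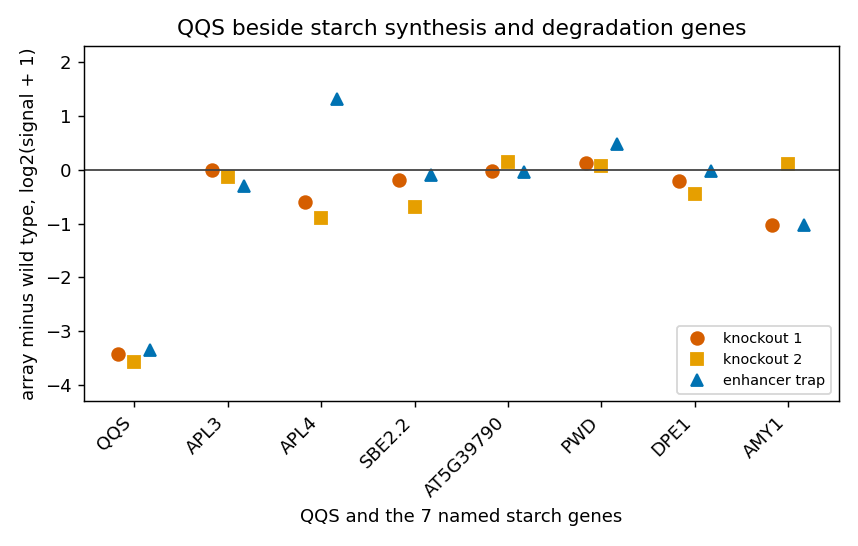
Difference of each mutant array from the wild-type array on the log2(signal + 1) scale for QQS and the 7 named starch genes, with 0 marking wild type. QQS lies below -3 in all 3 arrays, while the starch genes lie within 1.32 of wild type; APL4 and AMY1 are near background.

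Other genes listed for what is known of QQS were mostly not named on the array. NF-Y subunits (0 of 11 named), methylation-silenced loci (0 of 2) and markers of carbon and nitrogen status (0 of 13) were not analysed here. Of 29 DNA methylation and silencing genes 1 was named, DME, a DNA demethylase. DME read 84.5 and 87.8 in the knockout, 76.0 in the enhancer trap and 68.0 in wild type, with changes of 0.34 (adjusted p = 1.00) and 0.16 (adjusted p = 0.902) against wild type by limma. The clock gene GI, 1 of 10 named, read 244 and 224 in the knockout, 288 in the enhancer trap and 300 in wild type. GI did not pass the test in either comparison with wild type, and the hour of harvest is not given in the sources used here.

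Tissue and RNA measures were read beside QQS. The root gene PYK10 read 3308 and 3598 in the knockout, 4112 in the enhancer trap and 3525 in wild type, and the leaf gene LHCB4.1, chosen after its values were known, read 5745 and 5683 in the knockout, 4947 in the enhancer trap and 5821 in wild type. Neither passed the test in any comparison. Of the 2 root markers EXPA7, a root-hair expansin gene, passed the test once, in a comparison where 4.29% of all tested probe sets passed. It read 59.3 and 83.1 in the knockout, 113 in the enhancer trap and 44.7 in wild type, and rose by 1.31 in the enhancer trap against wild type (SE 0.284, adjusted p = 0.00191, limma). The seed gene PAP85, 1 of 3 seed markers named, read 6.42 and 0.989 in the knockout, 3.36 in the enhancer trap and 15.9 in wild type. PAP85 was thus highest in wild type, as QQS was, but above background there only, and its part in the result was not tested. No flower marker was named, nor any of the 3 leaf markers first listed.

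The 3'/5' ratio of GAPDH signals, which reflects how intact the RNA was, stood at 1.86 and 2.01 in the knockout, 1.38 in the enhancer trap and 1.70 in wild type, and that of actin was 3.12 and 2.04 in the knockout, 2.55 in the enhancer trap and 2.49 in wild type. Wild type lay within the mutant range in both ratios, while the knockout arrays took opposite orders in the 2 ratios. Knockout replicate 2 was the highest array in all 18 bacterial and phage spike-in probe sets, and wild type lay within the mutant range in 17 of them. Median signals of the arrays were 38.5 to 39.6.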

How the data were processed

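Transcripts were measured on 1-colour ATH1 arrays, 1 per sample. The deposited values are linear signal intensity. The submitters' processing notes name MAS5 and GCOS, and the versions are not given in the sources used here. With 2% of values trimmed from either end, the lowest array average was 100 after rounding. Array medians were 38.5 to 39.6, so arrays appeared already scaled to each other. Dim MAS5 signals vary more, which makes folds near background uncertain. The number of arrays limits the precision.

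Groups came from the sample titles. The 64 control probe sets were left out. Values were taken as log2(signal + 1), which understates changes of dim genes, and probe sets with a mean at or above the 40th percentile (4.58) were tested, which left 13648. A model with 3 group means was fitted with lmFit and eBayes with an intensity trend (limma 3.58.1, R 4.3.3), two-sided, with Benjamini-Hochberg adjustment at 0.05. The knockout pair gives its 1 residual degree of freedom, beside 41.8 prior degrees of freedom, and the lone arrays are taken to vary like that pair. The fit and the counts were tested on simulated data. Figures used matplotlib 3.10.9 in Python 3.11.15.

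Of the plant probe sets, 13513 have 1 gene in the platform annotation, 503 several and 8730 none listed. The TAIR10.1 gene table held 13436 of the 13513 and was used for names and gene order only. A gene with several probe sets was read by the one with the highest mean.

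Named were QQS, CES, up to 8 genes each with wild type alone above or below by at least 2-fold, the 6 genes nearest in pattern, 5 measured neighbours on either side, and up to 4 members of each of 12 gene lists with those past the test. Others (psaA, AT3G15550, AT3G30390, AT3G32030, AT4G19430, AT2G31010, LHCB4.1) were chosen after their values were seen. QQS, the lists and the tests were chosen with earlier results of these data known.

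Alternatives covered the pseudocount, filter, scaling, trend, fold and background, and each knockout array left out. Sequences were not used here.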

Additional observations from a re-analysis of the deposited data

How the results depend on the processing

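QQS kept the largest gap under every setting that could include it. The gap was 3.30 to 3.33 with quantile normalization or either median centring. The centring over tested probe sets, at 3.33, was chosen after seeing the data. With a pseudocount of 16, which shrinks dim differences by construction, the gap was 2.49. The enhancer trap was the highest mutant array, so leaving out either knockout array could not change the gap of 3.35. At the 60th percentile filter QQS was not tested. The knockout minus enhancer trap difference of QQS was -0.19 to -0.07 over the settings with both knockout arrays and -0.23 to -0.07 with 1 left out. The wild-type QQS signal was 14.5 times the background as reported and 9.65 times a floor of 16. Probe sets with wild type alone apart, 7 as reported, numbered 1 with a pseudocount of 16 (QQS). They numbered 661 with no filter, 0 at the 60th percentile filter, and 2 at 3-fold and at 4-fold. With the higher side required above background there were 6. There were 27 without knockout replicate 1 and 13 without replicate 2, and leaving out a mutant array can only keep or raise this count.

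Calls over the array depend on the fit, whose prior rests on 1 residual degree of freedom. Knockout against wild type gave 25 (17 higher, 8 lower) as reported, 0 without the filter by limma (1211 at an unadjusted p under 0.05), 2 (1 higher, 1 lower) with median centring, 2 without the trend and 59 with centring over tested probe sets. Enhancer trap against wild type gave 586 as reported, 153 without the filter, 316 with median centring and 205 without the trend. Knockout against enhancer trap gave 817 as reported, 231, 511 and 335. Calls could not be made with a knockout array left out. No paired analysis was possible because the groups share only replicate number 1.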
